A study of Mus musculus with 4 samples.

Results

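The genes of glycolysis, of the pentose phosphate pathway and of the response to low oxygen were examined in immortalized macrophages with and without the kinase MK2. The 38 genes were chosen by name, with earlier results of these data known and by a rule without a measured value, out of 55356 genes with RNA-seq values: 3 transporters, 12 genes of upper and 6 of lower glycolysis, 4 that act on pyruvate, 5 of the pentose phosphate pathway, 4 of oxygen sensing and 4 targets of hypoxia-inducible factor (HIF). All cells were macrophages of mice lacking *MK2* (*Mapkapk2*), immortalized in culture. They were transduced with a retroviral vector and sorted for its *GFP* signal. i*MK2*-KO +*GFP* cells carried the empty vector and i*MK2*-KO +*MK2* cells the vector with MK2, and each line was left untreated or received murine IL-1α at 5 ng/ml for 1 h. The lines are called +*GFP* and +*MK2* cells below. Each of these 4 conditions was sequenced as 1 library. Therefore none of the differences below has a replicate check, and the MK2 status of a line cannot be told apart from any other property of that line. The question was how RNA of these genes differed between the lines and after IL-1α.

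Glycolysis splits glucose into pyruvate and is a major source of ATP in activated macrophages, while the pentose phosphate pathway branches off at glucose-6-phosphate and yields NADPH and ribose. HIF-1α and HIF-2α are kept low by prolyl hydroxylases when oxygen is present. Where they accumulate, with hypoxia or inflammatory stimuli, they bind a short DNA element and raise RNA of target genes. Between them, their targets include genes of glucose transporters and glycolytic enzymes and *Vegfa*. Which of them acts on which gene was not examined here.

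The values are DESeq2 normalized counts as the authors deposited them, rounded to whole numbers. Differences are log2 ratios of 2 libraries with 1 added to each value, followed in brackets by an exact Clopper-Pearson 95% interval that covers counting error only. A gene was called higher or lower where the ratio reached 1.5-fold and the interval lay off 0, among the 12483 genes whose mean was at least 10, and "beyond counting error" says only that the interval lay off 0. Unless stated otherwise, 4 values in a row stand for the +*GFP* line without and with IL-1α, then for the +*MK2* line without and with IL-1α. The libraries summed to 24891906 to 25733071 normalized counts, with 17840 to 18152 genes above 0. *Mapkapk2* itself was at 561, 1585, 38357 and 38141, so both libraries labelled +*MK2* were above both labelled +*GFP*. The table does not show where in the gene the remaining values of +*GFP* cells arose. All 8 macrophage markers examined had values in every library, with a sum between 111846 and 125793. Of the 8, *Adgre1* (3978, 4140, 6832 and 6330), *Fcgr1* (1226, 1194, 2108 and 2216) and *Mertk* (421, 364, 1093 and 1168) were at least 1.5-fold lower in +*GFP* cells with and without IL-1α. *Cd14* (3652, 8072, 1962 and 2250) was at least 1.5-fold higher, and the other 4 were not called. The part of these differences in those below was not tested. Of 13 markers of fibroblasts, epithelium, T cells, B cells and neutrophils, 9 were at 0 in all libraries, and the 13 summed to at most 8.

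Of the 38 genes, 35 had a mean of at least 10 and entered the comparisons. The monocarboxylate exporter *Slc16a3* (0, 2, 0 and 0), the lactate dehydrogenase subunit *Ldhb* (0, 0, 3 and 1) and the prolyl hydroxylase *Egln3* (0, 1, 1 and 1) were at or below 3 normalized counts in every library. That is no more than the limit that a count of 0 allows, and no difference is given for them. The 35 genes were high on the whole, with a median of 3762 normalized counts against 749 over all genes tested. Per kilobase of exon, *Pkm*, *Pgam1*, *Ldha*, *Pgk1*, *Aldoa* and *Eno1* were the highest members, with 12041 to 22371 normalized counts per kb apart from 11613 for *Pgk1* in untreated +*MK2* cells. The ranges were far lower for *Ankrd37* (33.1 to 57.8), *Eno2* (15.3 to 103), *Pfkfb4* (73.2 to 97.2) and *Epas1* (24.0 to 179 normalized counts per kb). Together the members made up 2.19% and 2.13% of all normalized counts in +*GFP* cells and 1.93% and 1.95% in +*MK2* cells.

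Sequences next to the start sites were searched for the core of the element that HIF recognizes, and are shown for members whose RNA was 1.5-fold apart between the lines with and without IL-1α. The motifs were ACGTG and GCGTG, both 5 letters, on both strands, in windows of 250 bases before to 50 after each start site (RefSeq, GRCm38.p6). CACGTG holds ACGTG on both strands, and is then counted on each. *Epas1* and *Slc2a3* had no entry. Of 36 members with a window, 23 (63.9%) held ACGTG in any window, against 21.8% of 27025 genes in all and 30.3% of 9055 genes with a mean of at least 10 here. GCGTG was in 25 members (69.4%), against 35.2% and 56.9%, and either was in 33 (91.7%), against 46.7% and 68.6%. Of the members with a mean of at least 10, 21 of 33 (63.6%) held ACGTG. Counted by window, it was in 26 of 51 windows of members (51.0%), against 19.6% of 32851 and 26.2% of 11536. The members were listed as genes of glycolysis and of the HIF pathway with its targets, so a larger share is no independent result. Each match is a match of letters only. The rule for printing gave *Eno2*, *Vegfa* and *Pfkm*, which were lower in +*GFP* than in +*MK2* cells with and without IL-1α and have a window. *Pgk1*, a glycolytic enzyme gene higher in +*GFP* cells, was added after its values were seen. Shown are the 250 bases before the most upstream start site, 5′ to 3′ on the strand of the gene, with matches in capitals. *Eno2* (chr6:124769674-124769923, minus strand) and *Vegfa* (chr17:46032378-46032627, minus strand, 1 of 2 windows) held neither motif there, while the other window of *Vegfa* held each motif 1 time. *Pfkm* (chr15:98092339-98092588, plus strand, 1 of 4 windows) held CACGTG, and with the bases after the start this window held ACGTG 3 times. Of its other windows, that from 98108221 held each motif 1 time and that from 98108306 held GCGTG 1 time. The window from 98111810 held neither. *Pgk1* (chrX:106186850-106187099, plus strand) held ACGTG once on each strand. Sequence outside the windows was not searched.
Eno2: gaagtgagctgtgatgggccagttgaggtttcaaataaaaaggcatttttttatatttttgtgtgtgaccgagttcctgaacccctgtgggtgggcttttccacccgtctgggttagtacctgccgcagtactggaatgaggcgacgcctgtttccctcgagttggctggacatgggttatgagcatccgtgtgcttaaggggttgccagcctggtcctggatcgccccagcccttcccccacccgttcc
Vegfa: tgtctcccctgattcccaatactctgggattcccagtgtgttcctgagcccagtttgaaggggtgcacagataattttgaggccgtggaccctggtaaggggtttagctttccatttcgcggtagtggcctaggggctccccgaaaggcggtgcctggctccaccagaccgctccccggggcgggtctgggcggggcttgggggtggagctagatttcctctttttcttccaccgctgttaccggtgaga
Pfkm: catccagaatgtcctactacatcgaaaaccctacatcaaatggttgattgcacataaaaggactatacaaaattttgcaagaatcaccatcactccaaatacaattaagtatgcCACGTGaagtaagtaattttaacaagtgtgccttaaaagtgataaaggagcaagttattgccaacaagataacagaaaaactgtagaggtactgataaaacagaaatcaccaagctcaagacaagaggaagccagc
Pgk1: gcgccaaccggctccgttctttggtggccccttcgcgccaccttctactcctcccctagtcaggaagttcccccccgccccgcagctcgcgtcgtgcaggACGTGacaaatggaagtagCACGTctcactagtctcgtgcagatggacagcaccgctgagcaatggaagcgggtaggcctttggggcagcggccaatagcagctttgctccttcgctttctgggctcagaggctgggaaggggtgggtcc

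Between the lines, the enzymes of glycolysis and of the pentose phosphate pathway were mostly slightly higher in +*GFP* cells, while *Epas1*, *Eno2*, *Vegfa* and *Pfkm* were clearly lower. In 24 of 35 members both +*GFP* libraries were above both +*MK2* libraries, against 37.2% of all genes tested, and in 8 both were below, against 31.0%. Few of these differences were large. In untreated cells 1 member was at least 1.5-fold higher (all genes, 6.0%) and 4 were lower (8.82%), and after IL-1α 0 were higher (7.13%) and 5 lower (9.31%). In both comparisons alike, 0 members were higher (3.77%) and 4 lower (5.94%), so members were 1.5-fold apart about as often as other genes. Beyond counting error, 23 were higher in untreated cells (30.8%) and 8 lower (26.9%), with 22 (33.7%) and 7 (26.3%) after IL-1α, and 21 (23.3%) and 7 (19.3%) in both. Counting intervals are narrower for genes of higher level, as the members are, and the part of this in the shares beyond counting error was not tested. Nor were these shares recomputed with another scaling of the libraries, which shifts every ratio. Over the scalings, the median of all genes between IL-1α-treated lines ranged from −0.01 to 0.03. In RNA from whole cultures, fewer cells expressing a gene and less RNA per cell cannot be told apart. The median line difference of the members was 0.15 in untreated and 0.14 in IL-1α-treated cells, against 0.02 and 0.03 for all genes.

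**Figure D1:**
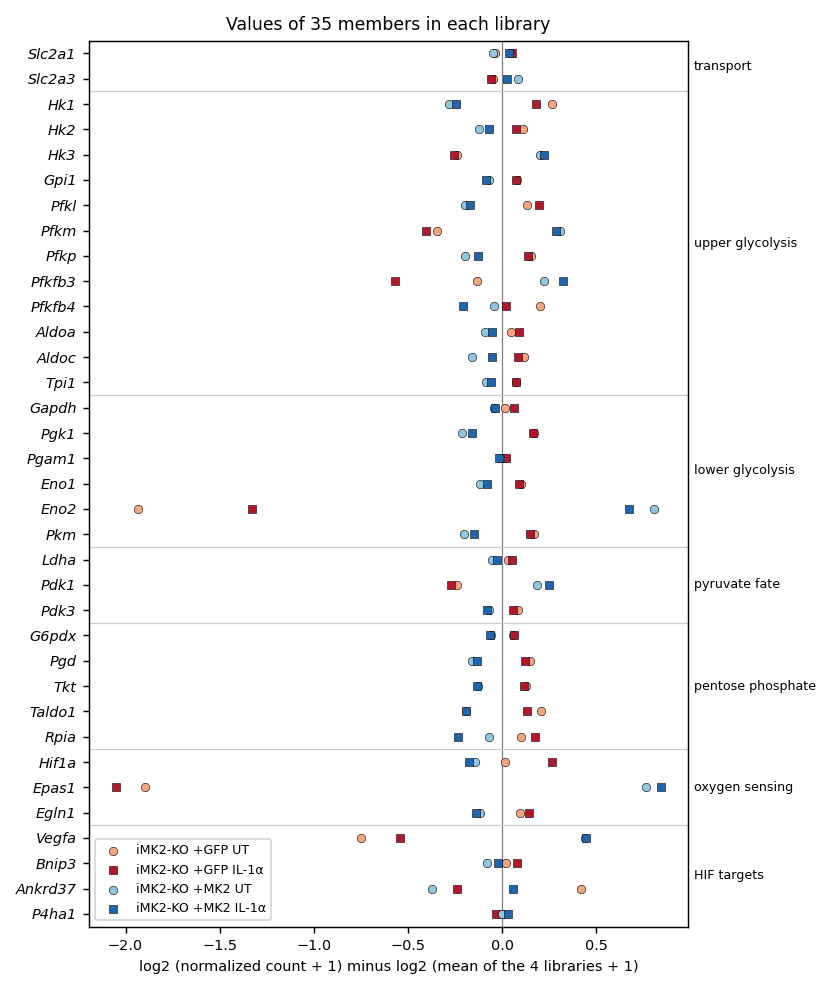
Each row is 1 of the 35 members with a mean of at least 10, grouped by role; the x axis gives the log2 value of each of the 4 libraries relative to the member's mean (normalized counts, 1 added; UT, untreated). In 24 rows both red points (iMK2-KO +GFP) lie right of both blue points (iMK2-KO +MK2), and in 8 rows, among them Epas1, Eno2, Vegfa and Pfkm, they lie left.

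RNA of the glucose transporters differed little between the lines. *Slc2a1*, which encodes the widespread glucose transporter GLUT1, was at 2607, 2770, 2584 and 2739, and its line difference was 0.01 (−0.07 to 0.09) in untreated and 0.02 (−0.06 to 0.09) in IL-1α-treated cells. *Slc2a3*, which encodes the high-affinity transporter GLUT3, was at 1516, 1505, 1662 and 1600, with line differences of −0.13 (−0.23 to −0.03) and −0.09 (−0.19 to 0.01).

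Hexokinases, which trap glucose as glucose-6-phosphate, differed in opposite directions. *Hk1* was at 4282, 4042, 2932 and 3013, the largest line difference upwards among the glycolytic enzymes, with 0.55 (0.48 to 0.61) or 1.46-fold in untreated and 0.42 (0.36 to 0.49) in IL-1α-treated cells. *Hk2*, the HIF-responsive isoenzyme, was at 5511, 5369, 4686 and 4873, with 0.23 (0.18 to 0.29) and 0.14 (0.08 to 0.20). *Hk3*, the isoenzyme of myeloid cells, was lower in +*GFP* cells, at 3183, 3149, 4324 and 4391, with −0.44 (−0.51 to −0.38) and −0.48 (−0.55 to −0.41). None of the 3 reached 1.5-fold, but their proportions shifted. Per kilobase of exon, *Hk3* accounted for 37.8% and 38.4% of the 3 hexokinases in +*GFP* cells and 51.0% and 50.5% in +*MK2* cells, and *Hk1* for 21.9% and 21.3% against 14.9% and 15.0%.

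Phosphofructokinase, the committed step of glycolysis, showed a similar split among its subunits. The liver type *Pfkl* (6203, 6469, 4935 and 5023) was higher in +*GFP* cells by 0.33 (0.28 to 0.38) and 0.36 (0.31 to 0.42). The platelet type *Pfkp* (8961, 8855, 7011 and 7373) was higher by 0.35 (0.31 to 0.40) and 0.26 (0.22 to 0.31). The muscle type *Pfkm* went the other way, at 895, 857, 1408 and 1386, with −0.65 (−0.78 to −0.53) or 1.57-fold lower in untreated and −0.69 (−0.82 to −0.57) or 1.62-fold lower in IL-1α-treated cells. Its share of the normalized counts of the 3 subunits was 5.57% (exact binomial 95% interval 5.22 to 5.94%) and 5.30% in +*GFP* cells, against 10.5% (10.0 to 11.1%) and 10.1% in +*MK2* cells. Both intervals cover counting error only and lie apart.

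The bifunctional enzymes of the *Pfkfb* genes set the level of fructose-2,6-bisphosphate, the activator of phosphofructokinase. *Pfkfb3*, the inducible form that favours its synthesis, was at 961, 712, 1229 and 1320. It was lower in +*GFP* cells by −0.35 (−0.48 to −0.23) in untreated and −0.89 (−1.02 to −0.76) or 1.85-fold in IL-1α-treated cells, so that it was called in the second comparison only, and whether the comparisons differ was not tested. *Pfkfb4* (474, 419, 401 and 357) was higher by 0.24 (0.05 to 0.44) and 0.23 (0.02 to 0.44). Per kilobase, *Pfkfb3* made up 56.7% and 52.3% of the pair in +*GFP* cells and 66.4% and 70.4% in +*MK2* cells.

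**Figure D2:**
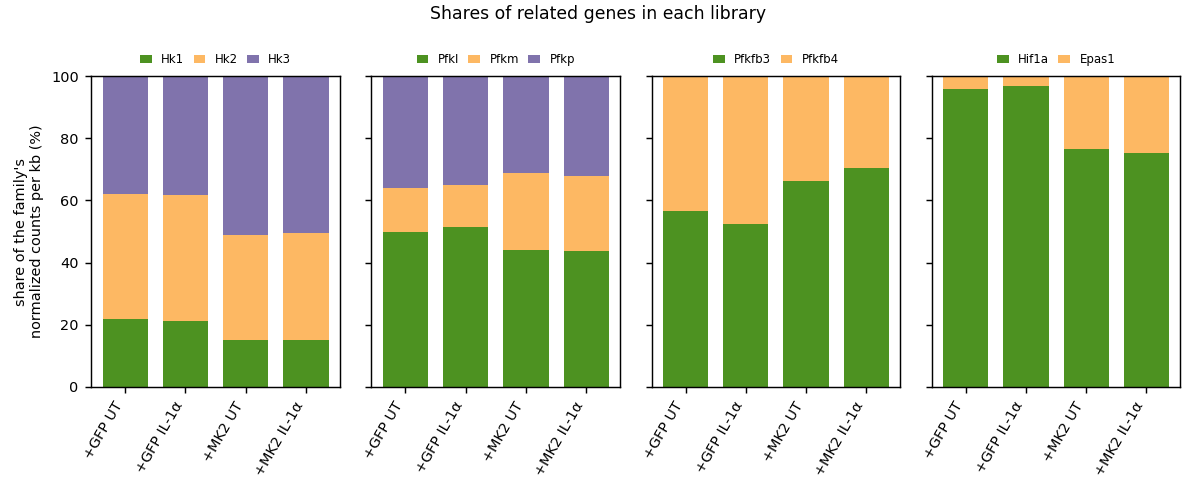
Stacked bars give, for each of the 4 libraries on the x axis, the share in percent of each related gene in the summed normalized counts per kilobase of exon (UT, untreated), for hexokinases, phosphofructokinase subunits, Pfkfb3 with Pfkfb4, and Hif1a with Epas1. The shares of Hk3, Pfkm, Pfkfb3 and Epas1 are larger in both iMK2-KO +MK2 libraries than in both iMK2-KO +GFP libraries.

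The remaining enzymes of upper glycolysis were 1.5-fold apart in neither comparison. The isomerase gene *Gpi1* (22594, 22453, 20315 and 20108), the aldolase genes *Aldoa* (43568, 44883, 39521 and 40586) and *Aldoc* (2660, 2608, 2197 and 2367), and the triosephosphate isomerase gene *Tpi1* (19500, 19512, 17453 and 17781) had line differences of 0.13 to 0.28, beyond counting error in both comparisons. Their direction was thus that of 9 of the 12 upper glycolysis genes, higher beyond counting error in both comparisons (all genes, 23.3%). *Hk3*, *Pfkm* and *Pfkfb3* were opposed, lower beyond counting error in both (all genes, 19.3%). A second gene carrying the name *Aldoa* had 27, 26, 14 and 11 and was left out.

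In lower glycolysis, apart from *Eno2*, the line differences were largest for the enzymes of the ATP-forming steps. *Pgk1*, phosphoglycerate kinase, was at 33953, 33821, 26059 and 27020 and higher in +*GFP* cells by 0.38 (0.36 to 0.41) and 0.32 (0.30 to 0.35). *Pkm*, pyruvate kinase, was the highest member, at 111879, 110307, 86592 and 89831, with 0.37 (0.36 to 0.38) and 0.30 (0.28 to 0.31). Both encode the enzymes that transfer phosphate to ADP, and for both the +*GFP* libraries lay above the +*MK2* libraries (all genes, 37.2%). *Gapdh* and *Pgam1* differed less. *Gapdh*, the dehydrogenase gene often used as a reference in PCR, was at 40535, 41826, 38926 and 38970, with 0.06 (0.04 to 0.08) and 0.10 (0.08 to 0.12). *Pgam1*, phosphoglycerate mutase, was nearly level at 33759, 34152, 33448 and 33326, with 0.01 (−0.01 to 0.04) and 0.04 (0.01 to 0.06).

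Enolase, which makes phosphoenolpyruvate, held the largest contrast within an enzyme family. *Eno1*, the ubiquitous form, was at 77223, 76683, 66535 and 68222, higher in +*GFP* cells by 0.21 (0.20 to 0.23) and 0.17 (0.15 to 0.18). *Eno2*, the form known from neurons and also a HIF target, was at 72, 110, 486 and 443, lower by −2.74 (−3.13 to −2.40) or 6.67-fold in untreated and −2.0 (−2.32 to −1.71) or 4.0-fold in IL-1α-treated cells. The libraries of the lines did not overlap for either gene, as for many genes (of all genes, 37.2% higher and 31.0% lower in +*GFP* cells). Even so *Eno2* was a small part of enolase RNA, 0.0931% and 0.143% of the pair in +*GFP* cells and 0.725% and 0.645% in +*MK2* cells. Its promoter window above held no match to either motif. *Eno1* shares reads with the near-identical *Eno1b* (2347, 2105, 2025 and 2295), and with both summed the line differences were 0.21 and 0.16.

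Of the genes that act on pyruvate, *Pdk1* went against the direction of *Ldha*. *Ldha*, which turns pyruvate into lactate, was at 55130, 56092, 51986 and 52930, with line differences of 0.08 (0.07 to 0.10) in both comparisons. *Pdk1*, the kinase that shuts pyruvate dehydrogenase and a HIF-1α target, was lower in +*GFP* cells, at 5499, 5383, 7404 and 7737, by −0.43 (−0.48 to −0.38) and −0.52 (−0.57 to −0.47). *Pdk3*, a related kinase, was at 829, 815, 746 and 738, with 0.15 (0.01 to 0.30) and 0.14 (−0.002 to 0.29), the second within counting error. *Pdk1* made up 86.9% of the normalized counts of this pair in both +*GFP* libraries and 90.8% and 91.3% in +*MK2* cells.

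All 5 pentose phosphate genes were higher in +*GFP* cells beyond counting error in both comparisons (all genes, 23.3%), with a median line difference of 0.25 in each, and none reached 1.5-fold. In the oxidative branch, *G6pdx*, the NADPH-forming entry enzyme, was at 7468, 7518, 6901 and 6861, with 0.11 (0.07 to 0.16) and 0.13 (0.08 to 0.18). *Pgd*, the next NADPH-forming enzyme, was at 16435, 16082, 13257 and 13484, with 0.31 (0.28 to 0.34) and 0.25 (0.22 to 0.29). The branch that interconverts sugars differed by as much. Transketolase *Tkt* (21739, 21623, 18229 and 18195) was higher by 0.25 in both comparisons and transaldolase *Taldo1* (8110, 7719, 6158 and 6161) by 0.40 (0.35 to 0.45) and 0.33 (0.28 to 0.37). *Rpia*, the isomerase that makes ribose-5-phosphate, was at 1317, 1388, 1173 and 1044, with 0.17 (0.05 to 0.28) and 0.41 (0.29 to 0.53). In sum, the 5 genes were 0.221% and 0.211% of all normalized counts in +*GFP* cells and 0.184% and 0.182% in +*MK2* cells.

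**Figure D3:**
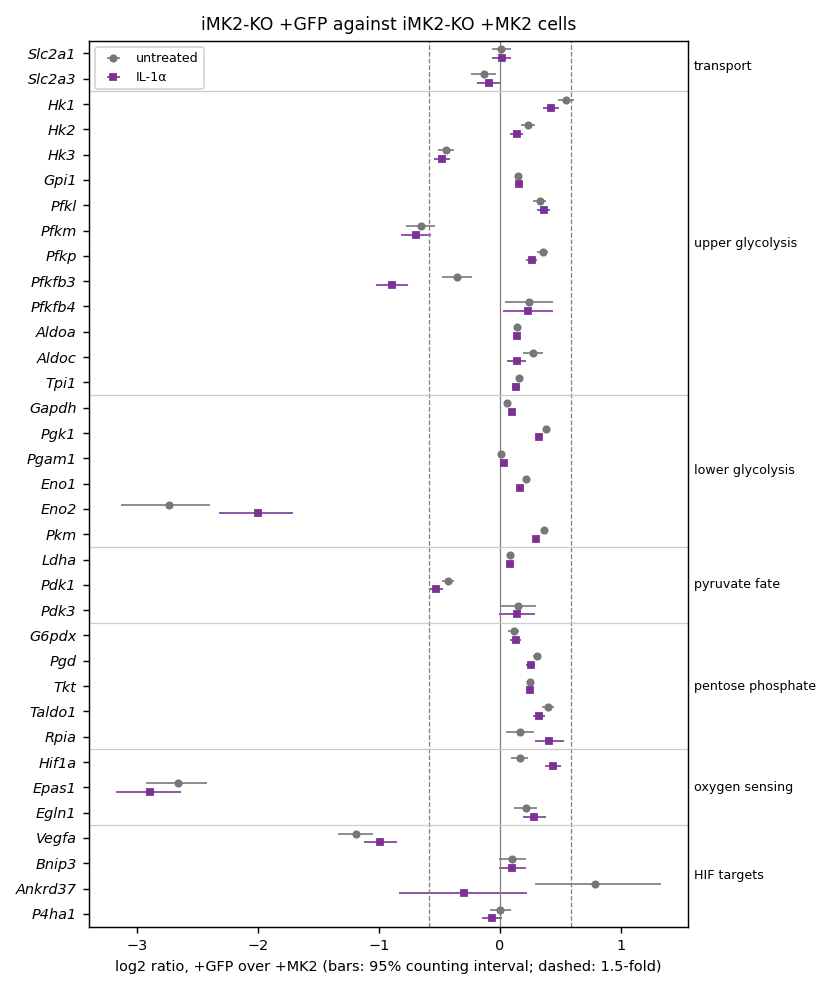
Line differences of the 35 members as log2 ratios of iMK2-KO +GFP over iMK2-KO +MK2 cells (x axis), untreated (grey circles) and after IL-1α (purple squares), with bars for the 95% counting interval and dashed lines at 1.5-fold. Most enzymes lie between 0 and 0.5, while Epas1, Eno2, Vegfa and Pfkm lie left of the lower dashed line in both comparisons.

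The 2 HIF α subunits differed in opposite directions. *Hif1a*, for HIF-1α, was at 3662, 4342, 3270 and 3201, higher in +*GFP* cells by 0.16 (0.09 to 0.23) in untreated and 0.44 (0.37 to 0.51) in IL-1α-treated cells. *Epas1*, for HIF-2α, was at 149, 134, 948 and 999, lower by −2.66 (−2.93 to −2.42) or 6.33-fold and by −2.89 (−3.17 to −2.64) or 7.41-fold, the largest contrast of the set after IL-1α. *Epas1* was 3.91% (3.32 to 4.57%) and 2.99% (2.51 to 3.54%) of the pair in +*GFP* cells and 22.5% (21.2 to 23.8%) and 23.8% (22.5 to 25.1%) in +*MK2* cells, with intervals for counting error only. *Hif1a* was therefore the more abundant in every library, also per kilobase. *Egln1*, the main prolyl hydroxylase that marks HIF-α for degradation, was at 1954, 2016, 1683 and 1656, with 0.22 (0.12 to 0.31) and 0.28 (0.19 to 0.38).

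Of the 4 members that are HIF targets outside metabolism, *Vegfa* alone differed 1.5-fold in both comparisons. *Vegfa*, the angiogenic growth factor, was at 564, 652, 1288 and 1293, with −1.19 (−1.34 to −1.05) or 2.28-fold lower and −0.99 (−1.13 to −0.85) or 1.98-fold lower in +*GFP* cells. *Bnip3*, a mitophagy receptor (1389, 1448, 1293 and 1346), and *P4ha1*, a collagen prolyl hydroxylase (2356, 2296, 2346 and 2405), were within counting error in both. *Ankrd37*, a small ankyrin repeat protein gene, was at 89, 56, 51 and 69, called higher in untreated cells at 0.79 (0.29 to 1.33) but at −0.30 (−0.84 to 0.23) after IL-1α. Its libraries overlapped between the lines, and the values are low.

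**Figure D4:**
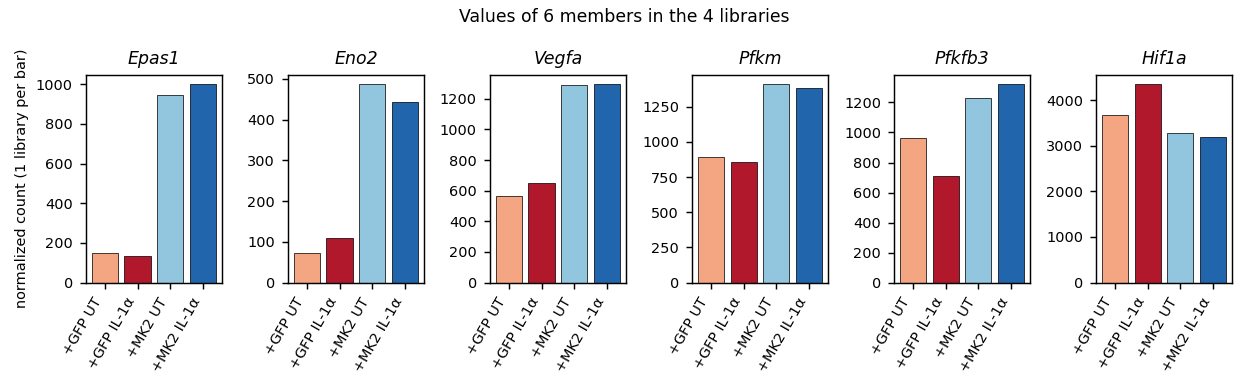
Bars give the normalized count (y axis, from 0, own scale per gene) of Epas1, Eno2, Vegfa, Pfkm, Pfkfb3 and Hif1a in each of the 4 libraries (UT, untreated), 1 library per bar and no error bar. Epas1, Eno2, Vegfa, Pfkm and Pfkfb3 are higher in both iMK2-KO +MK2 libraries, and Hif1a is highest in IL-1α-treated iMK2-KO +GFP cells.

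After 1 h of IL-1α, few of these genes were called in either line, as was the case for all genes. The median absolute response of the members was 0.04 in both lines, against a median absolute line difference of 0.24 in untreated and 0.25 in IL-1α-treated cells. For all genes, the median absolute responses were 0.11 in +*GFP* and 0.08 in +*MK2* cells, which includes many genes of low level. In +*GFP* cells 1 member was called higher (all genes, 3.21%) and 1 lower (2.24%), and in +*MK2* cells 0 were higher (1.19%) and 0 lower (1.43%). Beyond counting error, 8 were higher (20.0%) and 5 lower (12.3%) in +*GFP* cells, and 9 higher (11.4%) and 1 lower (8.23%) in +*MK2* cells.

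In +*GFP* cells the members called after IL-1α were both low. *Eno2* was higher, 110 against 72, at 0.60 (0.17 to 1.06), and *Ankrd37* lower, 56 against 89, at −0.66 (−1.18 to −0.17). *Eno2* passed 1.5-fold only narrowly and was no longer called with a pseudocount of 5, with equal library totals or with median-of-ratios scaling. In +*MK2* cells the same genes were within counting error, at −0.13 (−0.32 to 0.06) and 0.43 (−0.11 to 0.99).

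Several members of higher level had responses below 1.5-fold that lay off 0 in 1 line. *Pfkfb3* was lower after IL-1α, 712 against 961, at −0.43 (−0.57 to −0.29), whereas it was at 0.10 (−0.01 to 0.22) in +*MK2* cells. *Hif1a* was higher, 4342 against 3662, at 0.25 (0.18 to 0.31), whereas it was at −0.03 (−0.10 to 0.04) in +*MK2* cells. *Vegfa* was at 0.21 (0.04 to 0.37) and 0.01 (−0.11 to 0.12). In +*MK2* cells *Rpia* was the only member lower beyond counting error, 1044 against 1173, at −0.17 (−0.29 to −0.05), with 0.08 (−0.03 to 0.19) in +*GFP* cells. With 1 library per condition the difference between the responses of the lines could not be tested. Responses in both lines that lay off 0 in the same direction were found for *Slc2a1* (0.09 and 0.08), *Aldoa* (0.04 and 0.04) and *Ldha* (0.02 and 0.03). Of all genes tested, 3.52% responded in opposite directions beyond counting error, and of the members *Pkm* did, at −0.02 (−0.03 to −0.01) in +*GFP* and 0.05 (0.04 to 0.07) in +*MK2* cells. Sizes of 0.05 and below are near the shift that another scaling of the libraries makes, since the median response of all genes in +*GFP* cells ranged from −0.03 to 0.01 over the scalings.

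**Figure D5:**
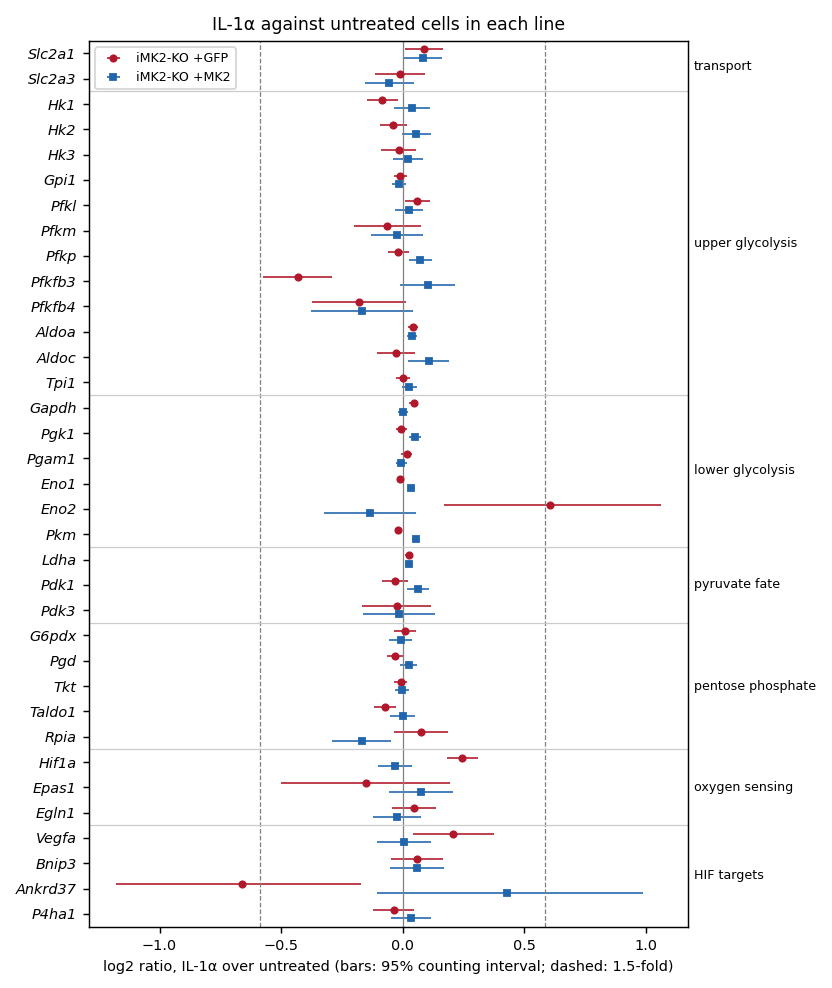
IL-1α responses of the 35 members as log2 ratios of IL-1α-treated over untreated cells (x axis) in iMK2-KO +GFP (red circles) and iMK2-KO +MK2 cells (blue squares), with bars for the 95% counting interval and dashed lines at 1.5-fold. Nearly all points lie close to 0, with Eno2, Ankrd37, Pfkfb3 and Hif1a of iMK2-KO +GFP cells as the widest exceptions with intervals off 0.

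The rest of the pathways was read from 4 lists that do not overlap with the members. Of all genes tested, 6.0% were called higher and 8.82% lower in untreated cells, and 7.13% and 9.31% after IL-1α. Of 17 other glycolysis genes with a mean of at least 10, 1 was called higher and 2 lower in each comparison of the lines. Beyond counting error, 5 were higher (all genes, 30.8%) and 5 lower (26.9%) in untreated cells. After IL-1α, 6 (33.7%) and 4 (26.3%) were, and the median line differences were 0.03 and 0.02. *Slc2a6*, the lysosomal hexose transporter gene, was at 2208, 4363, 1441 and 1511, higher in +*GFP* cells by 0.62 (0.52 to 0.71) in untreated and 1.53 (1.45 to 1.62) in IL-1α-treated cells. Of these 17 genes, it was the only one called in the response to IL-1α. That response was 0.98 (0.91 to 1.06) in +*GFP* against 0.07 (−0.04 to 0.17) in +*MK2* cells. *Eno3*, the muscle enolase gene (354, 318, 608 and 583), and *Pfkfb2* (409, 403, 687 and 649) were lower in +*GFP* cells, by −0.78 and −0.87 and by −0.75 and −0.69. They lay on the same side as *Eno2* and *Pfkfb3*, whereas *Eno1* and *Pfkfb4* were higher in +*GFP* cells. *Pfkfb1* was within counting error in both comparisons of the lines. Of 6 other pentose phosphate genes 0 were called in any comparison. Beyond counting error, 2 were higher and 1 lower in untreated cells and 3 and 2 after IL-1α, with median line differences of 0.07 and 0.10, so the direction of the 5 members was not shared throughout.

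Of 18 other oxygen sensing genes and HIF targets, 1 was called higher (all genes, 6.0%) and 2 lower (8.82%) in untreated cells. After IL-1α, 4 were called higher (7.13%) and 3 lower (9.31%). The 4 include *Nos2*, the inducible nitric oxide synthase gene, which was at 38 in IL-1α-treated +*GFP* cells and at 3 in the other libraries. It passed the minimum mean only through that library, and no ratio is given. *Ndrg1*, a stress-response gene, was at 68, 71, 36 and 31, and these values are low. It was higher in +*GFP* cells by 0.90 (0.31 to 1.54) and 1.17 (0.57 to 1.85). *P4ha2*, the relative of *P4ha1* (117, 96, 324 and 290), and the heme oxygenase gene *Hmox1* (2726, 2641, 7214 and 7289) were lower, by −1.46 and −1.58 and by −1.40 and −1.46. For these 3 genes the libraries of the lines did not overlap, as for many genes (of all genes, 37.2% higher and 31.0% lower in +*GFP* cells). *Ddit4*, an inhibitor of mTORC1 (1059, 1245, 770 and 786), was called higher only after IL-1α, at 0.66 (0.53 to 0.79), with 0.46 in untreated cells. *Car9*, carbonic anhydrase IX (100, 67, 92 and 109), was called lower only after IL-1α, at −0.69 (−1.16 to −0.25). *Cited2*, which competes with HIF-1α for its coactivator, was at 1550, 3883, 1883 and 2019, so that IL-1α-treated +*GFP* cells stood apart with a response of 1.32 (1.24 to 1.41), against 0.10 (0.01 to 0.19) in +*MK2* cells.

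Of 8 regulators of glucose metabolism, 1 was called higher (all genes, 6.0%) and 1 lower (8.82%) in untreated cells. After IL-1α, 2 were called higher (7.13%) and 1 lower (9.31%). *Arrdc4*, a glucose-responsive arrestin gene, was lower in +*GFP* cells by −1.80 in both comparisons (129, 126, 452 and 440). *Trp53* (2888, 3849, 2303 and 2426) was called higher after IL-1α, at 0.67 (0.59 to 0.74). *Acod1*, the itaconate-forming enzyme of activated macrophages, was at 311, 6660, 119 and 137, a response of 4.42 (4.26 to 4.59) in +*GFP* cells against 0.20 (−0.16 to 0.57) in +*MK2* cells. In that +*GFP* library the members of upper and lower glycolysis stayed within 0.10 of untreated cells on the log2 scale, apart from *Pfkfb3*, *Pfkfb4* and *Eno2*.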

How the data were processed

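RNA from 4 libraries of immortalized macrophages, 1 per condition, was sequenced. The score in the table is the authors' DESeq2 normalized count, rounded and deposited for 55356 genes. The labels name poly(A) selection, the paper's methods ribosomal RNA depletion. Aligner, counter and size factors are not given in the sources used here. The labels name GRCm38, but positions in the table match those of GENCODE M21 on that build for 1494 of 52080 shared gene IDs, so no position of the table is printed. Promoters are from RefSeq, GRCm38.p6, and exon lengths from GENCODE M21.

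No count model and no test were applied, since each condition has 1 library. Ratios used a pseudocount of 1, and intervals treated 1 unit as 1 read, which is not known. No molecular identifiers are named, so intervals cover counting error only. Values were computed with Python 3.11.15, pandas 2.3.3 and scipy 1.17.1, after the intervals were checked on simulated counts. Columns of other samples numbered 0. All members are named. Of the other lists, genes called in any comparison are named. *Ero1l* was matched through its synonym *Ero1a*. Members and lists were chosen with earlier results of these data known. Alternatives changed the pseudocount, minimum mean, fold, reads per unit and scaling.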

Additional observations from a re-analysis of the deposited data

Results flagged for a closer look

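*Pkm* was singled out because its IL-1α responses had opposite signs in the lines, each beyond counting error. The response in +*GFP* cells minus that in +*MK2* cells was −0.0734 on the log2 scale, with 1 library per condition, so the difference was not tested. The values were 111879 and 110307 without and with IL-1α in +*GFP* cells and 86592 and 89831 in +*MK2* cells.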

How the results depend on the processing

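Of 144 recomputed counts and medians over the members, 126 stayed within 1.5 times or within the spread allowed and 18 moved. Of 976 recomputed ratios of single members, 58 left their counting interval. These were 23 with equal library totals, 24 with median-of-ratios scaling and 11 with trimmed mean scaling. No called member value reversed under the alternatives run. Counts of members beyond counting error were not recomputed. At the smaller of the other folds tried, members higher and lower were 7 and 7 between untreated lines, 6 were higher between IL-1α-treated lines, 2 were lower in the response of +*GFP* cells, and 11 were apart in both comparisons of the lines. At a fold of 2, these were 0 higher between untreated lines, 2 lower between IL-1α-treated lines, 0 higher and 0 lower in the response of +*GFP* cells, and 2 in both comparisons of the lines. With a mean of at least 100, 0 were higher between untreated lines and 0 lower in that response, as *Ankrd37* was no longer tested. In the same response, 0 were higher with a pseudocount of 5, with equal library totals and with median-of-ratios scaling, and its median was −0.0535 with equal totals and −0.0314 with median-of-ratios scaling. The median between untreated lines was 0.13 with median-of-ratios scaling, where the median of all genes moved alike. Taking fewer (0.8) or more reads per unit moved none of these. No paired analysis was possible because each condition had 1 library and the labels give no replicate numbers; for the same reason no library could be left out.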
